A study of Mus musculus with 6 samples.

Results

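The alpha and beta tubulin isotype genes of the left ventricle are described here: Tuba1a, Tuba1b, Tuba1c, Tuba4a and Tuba8 for alpha tubulin, and Tubb2a, Tubb2b, Tubb4b, Tubb5 and Tubb6 for beta tubulin. They were taken by symbol from the count table, and all 10 were found among its 47729 genes and were kept among the 17343 genes tested. The tissue was mouse left ventricular myocardium taken 9 days after TAC (transverse aortic constriction), surgery in which a band around the aorta makes the left ventricle pump against a raised pressure. The Treg group (3 libraries) came, per the series title, from mice given systemic regulatory T cells that had been induced in culture with CD28 deprived. The control group (3 libraries) had the same operation. All 6 samples were therefore pressure-loaded, no unoperated heart was analysed here, and the labels give neither the strain, sex or age of the mice nor what the control mice were given. Libraries of each group are called replicates 1, 2 and 3, and no label states that they came from separate animals, so a p-value here reflects only the differences among 6 libraries, which may be technical.

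Alpha and beta tubulin form the dimer from which microtubules are built, and each is encoded by several genes, the isotypes, whose products differ mainly in a short acidic tail at the carboxyl end. In heart muscle cells microtubules run along and between the sarcomeres, carry cargo and resist contraction. A denser and more detyrosinated microtubule network is a known feature of the pressure-loaded heart, and detyrosination means removal of the last tyrosine of the alpha tubulin tail. Cells also limit their own tubulin mRNA: when free dimers are in excess, the factor encoded by Ttc5 recognises the first residues of a tubulin chain as it leaves the ribosome, and the mRNA is degraded.

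The parts of the genes on which those mechanisms act are shown first. Tuba1a (ENSMUSG00000072235) lies on chromosome 15, 98949837 to 98953703, Tuba1b (ENSMUSG00000023004) on chromosome 15, 98931425 to 98934565, and Tuba1c (ENSMUSG00000043091) on chromosome 15, 99029891 to 99038110, so these 3 are close neighbours. Tuba4a (ENSMUSG00000026202) lies on chromosome 1, 75214228 to 75219865, and Tuba8 (ENSMUSG00000030137) on chromosome 6, 121210696 to 121226854. Coordinates and coding sequences are those of GENCODE M21 on GRCm38, on the coding strand. Each line gives the last 45 coding bases of 1 of 3 alpha isotypes and its stop codon, with the last codon before the stop in capitals.
Tuba1c: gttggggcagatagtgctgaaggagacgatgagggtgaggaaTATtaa
Tuba4a: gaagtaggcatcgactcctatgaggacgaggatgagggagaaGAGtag
Tuba8: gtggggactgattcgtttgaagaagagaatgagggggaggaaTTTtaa

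TAT is a codon of tyrosine, so Tuba1c encodes the residue that detyrosination removes. Tuba4a ends in GAG, a glutamate codon, and Tuba8 in TTT, a phenylalanine codon, so neither encodes a final tyrosine. The first 12 coding bases are those recognised, as residues, in the control of tubulin mRNA. They were ATGCGTGAGTGC in Tuba1c, ATGCGCGAGTGC in Tuba4a and ATGAGGGAATGC in Tuba8.

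The beta isotypes Tubb2a (ENSMUSG00000058672) and Tubb2b (ENSMUSG00000045136) lie side by side on chromosome 13, at 34074274 to 34078007 and 34126748 to 34130466. Tubb4b (ENSMUSG00000036752) lies on chromosome 2, 25222160 to 25224702 and Tubb5 (ENSMUSG00000001525) on chromosome 17, 35833921 to 35838306. The coding ends of 3 of them are shown in the same way, the first pair because the genes are near copies and Tubb4b because it was the most abundant beta isotype per length.
Tubb2a: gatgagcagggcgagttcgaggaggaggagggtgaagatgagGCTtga
Tubb2b: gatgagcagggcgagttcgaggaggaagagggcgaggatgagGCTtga
Tubb4b: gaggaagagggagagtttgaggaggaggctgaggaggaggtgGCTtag

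Tubb6 (ENSMUSG00000001473) lies on chromosome 18, 67390717 to 67402749, and its sequence is not shown. How far counts of single isotypes can be told apart depends on how much sequence the genes share. Coding bases were 98.3% identical between Tuba1a and Tuba1b, 98.0% between Tuba1b and Tuba1c, 97.2% between Tuba1a and Tuba1c and 96.5% between Tubb2a and Tubb2b, against 79.3% to 85.5% for other pairs within the alpha family and 80.6% to 84.6% within the beta family. Reads were 101 bp long, so every 101-base window of the annotated transcripts was searched for in all other genes. Such a window occurred in at least 1 other gene for 65.0% of those of Tuba1a, 62.0% of Tuba1b, 45.9% of Tuba1c, 36.7% of Tubb2a, 25.8% of Tubb2b and 20.7% of Tubb4b. Tuba4a, Tuba8, Tubb5 and Tubb6 shared 0 windows with any other annotated gene. Much of the overlap was with processed pseudogenes, such as Gm14150 and Gm17383 for the Tuba1 genes and Tubb4b-ps1 for Tubb4b. The split of counts within the Tuba1 genes, and between Tubb2a and Tubb2b, is therefore uncertain, while that of Tuba4a, Tuba8, Tubb5 and Tubb6 is not affected by shared windows of this length.

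Library totals lay between 28937253 and 29979080 counts, so depth differed little and every isotype had at least 254 counts in each library. Levels are given as CPM, counts relative to library totals scaled with TMM factors. Control replicate 3 stood farthest from the rest over all genes (chi-square per degree of freedom 96.5 to 153 against each other library, and 19.5 to 89.8 among the other 5), and no 2 libraries agreed within sampling noise. Markers of heart muscle cells were abundant in all libraries, with the 8 listed genes summing to 36810 to 51200 CPM in the Treg libraries and 31530 to 46470 CPM in the control libraries. Treg replicate 3 also held the atrial transcript Myl7 at 1202 counts, against 1 to 6 counts in the other libraries. In bulk tissue, fewer cells of a type and less RNA per cell cannot be told apart.

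The ubiquitous alpha isotypes of the Tuba1 group averaged lower in the Treg libraries than in the control libraries, with control replicate 1 as low as the Treg libraries. None passed the test. Tuba1a, an isotype best known from developing neurons, stood at 94.0, 78.0 and 133 CPM in the Treg libraries, against 104, 268 and 326 CPM in the control libraries. Control replicate 1 fell inside the Treg range and the other 2 controls lay above it, so the groups overlapped. The means were 102 ± 28.2 CPM in Treg and 233 ± 115 CPM in control (SD, n = 3 each, as throughout). The log2 fold change, Treg over control, was −1.20 with an SE of 0.41, and edgeR's adjusted p was 0.247. Tuba1b, the main alpha isotype of dividing and non-neuronal cells, stood at 126, 93.7 and 205 CPM in Treg, against 98.6, 381 and 583 CPM in control. Its highest control was 5.91 times its lowest, and the log2 fold change was −1.32 ± 0.59 (edgeR adjusted p = 0.318). Tuba1c, a close relative, stood at 60.1, 58.2 and 96.3 CPM in Treg, against 55.8, 167 and 268 CPM in control. Here control replicate 1 lay below every Treg library, and the log2 fold change was −1.20 ± 0.51 (edgeR adjusted p = 0.3003).

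The muscle-rich alpha isotypes had smaller differences. Tuba4a, an isotype abundant in striated muscle and brain, stood at 230.3, 203 and 321 CPM in Treg, against 95.3, 427 and 462 CPM in control. The lowest and the highest library were thus both controls, and the log2 fold change was −0.38 ± 0.52 (edgeR adjusted p = 0.721). Tuba8, an isotype of heart and skeletal muscle, stood at 55.3, 66.7 and 70.0 CPM in Treg, against 34.7, 94.3 and 87.5 CPM in control. Its Treg libraries lay within 1.27-fold of each other and between control replicate 1 and the other controls, with a log2 fold change of −0.17 ± 0.34 (edgeR adjusted p = 0.812).

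None of the beta isotypes passed the test. Tubb6, an isotype raised in injured and regenerating muscle fibres, stood at 21.9, 18.6 and 32.9 CPM in Treg, against 17.97, 60.3 and 134 CPM in control. Control replicate 3 alone was 7.46 times control replicate 1, the widest spread of any isotype, and the log2 fold change was −1.53 ± 0.63 (edgeR adjusted p = 0.291). Without control replicate 3 it was −0.68, nearer 0 than that of Tubb2b there (−1.06). Tubb2b, a beta isotype of developing neurons, stood at 11.1, 9.16 and 22.7 CPM in Treg, against 14.7, 44.9 and 44.3 CPM in control (log2 fold change −1.27 ± 0.49, edgeR adjusted p = 0.279). Its neighbour Tubb2a stood at 28.9, 26.3 and 59.0 CPM in Treg, against 28.7, 101 and 94.8 CPM in control (−0.98 ± 0.50, edgeR adjusted p = 0.367). In both genes control replicate 1 fell inside the Treg range.

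Tubb4b, a broadly used beta isotype that is also a component of cilia, stood at 95.6, 89.4 and 161 CPM in Treg, against 76.4, 256 and 364 CPM in control, with a log2 fold change of −1.01 ± 0.52 (edgeR adjusted p = 0.368). Tubb5, the ubiquitous beta isotype of most cells, stood at 109, 66.5 and 128 CPM in Treg, against 71.4, 169 and 209 CPM in control (−0.56 ± 0.40, edgeR adjusted p = 0.493). In Tubb4b the lowest of all 6 libraries was control replicate 1, and in Tubb5 it was Treg replicate 2.

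**Figure D1:**
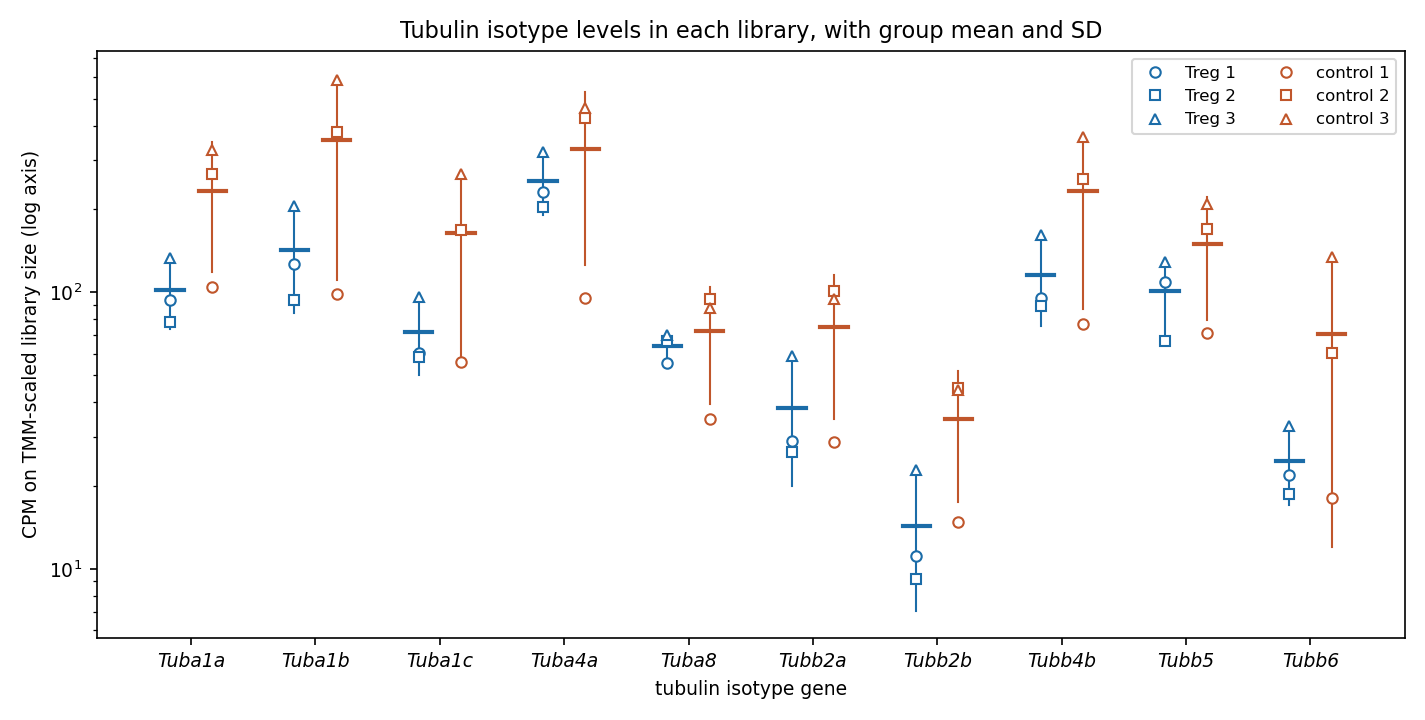
Level of each tubulin isotype gene in each library, in CPM on a log axis, with Treg libraries left of control libraries for each gene; points are libraries, horizontal bars are group means and vertical lines are 1 SD (n = 3). In all 10 genes control replicates 2 and 3 lie above the 3 Treg libraries while control replicate 1 lies within or below them.

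The question the comparison addresses is whether tubulin transcript levels under pressure load differed between Treg and control hearts. By edgeR's quasi-likelihood test, 0 of the 10 isotypes and 0 of 17343 genes had an adjusted p under 0.05 (0.0% of genes). At an adjusted p under 0.1 there were 0 isotypes, against 0.323% of all genes. At an unadjusted p under 0.05, a count and not a call, 4 isotypes were lower in Treg (Tuba1a, Tubb2b, Tubb6 and Tuba1c), against 8.31% of genes, and 0 were higher, against 8.24% of genes. DESeq2 gave 1 isotype an adjusted p under 0.05, Tuba1a at 0.0491, against 3.76% of genes, and limma-voom gave 0. All 10 log2 fold changes were below 0, as were 52.1% of those of all genes, and 6 were at or below −1, as were 2.61%. The median over the isotypes was −1.10, beside −0.02 over all genes tested. The groups overlapped for all 10 isotypes, so 0 were separated, against 25.4% of genes separated in either direction and 11.7% with Treg lower.

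These values depended on which libraries were included, and no omission of 1 library brought an isotype past the threshold. Without control replicate 1 the median was −1.48, all 10 isotypes had an unadjusted p under 0.05 (22.5% of genes did) and 6 had an edgeR adjusted p under 0.1 (4.08% of genes did), with adjusted p values from 0.0691 to 0.151. Without control replicate 3 the median was −0.66, and without control replicate 2 it was −0.98. In both of these, 0 isotypes had an unadjusted p under 0.05, against 18.6% and 14.8% of genes in that order. The log2 fold change of Tuba8 was 0.07 without control replicate 2. Without Treg replicate 1 or Treg replicate 2 there were again 0 isotypes at that p, against 7.98% and 9.61% of genes. Without Treg replicate 3 there were 5, against 10.4% of genes.

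**Figure D2:**
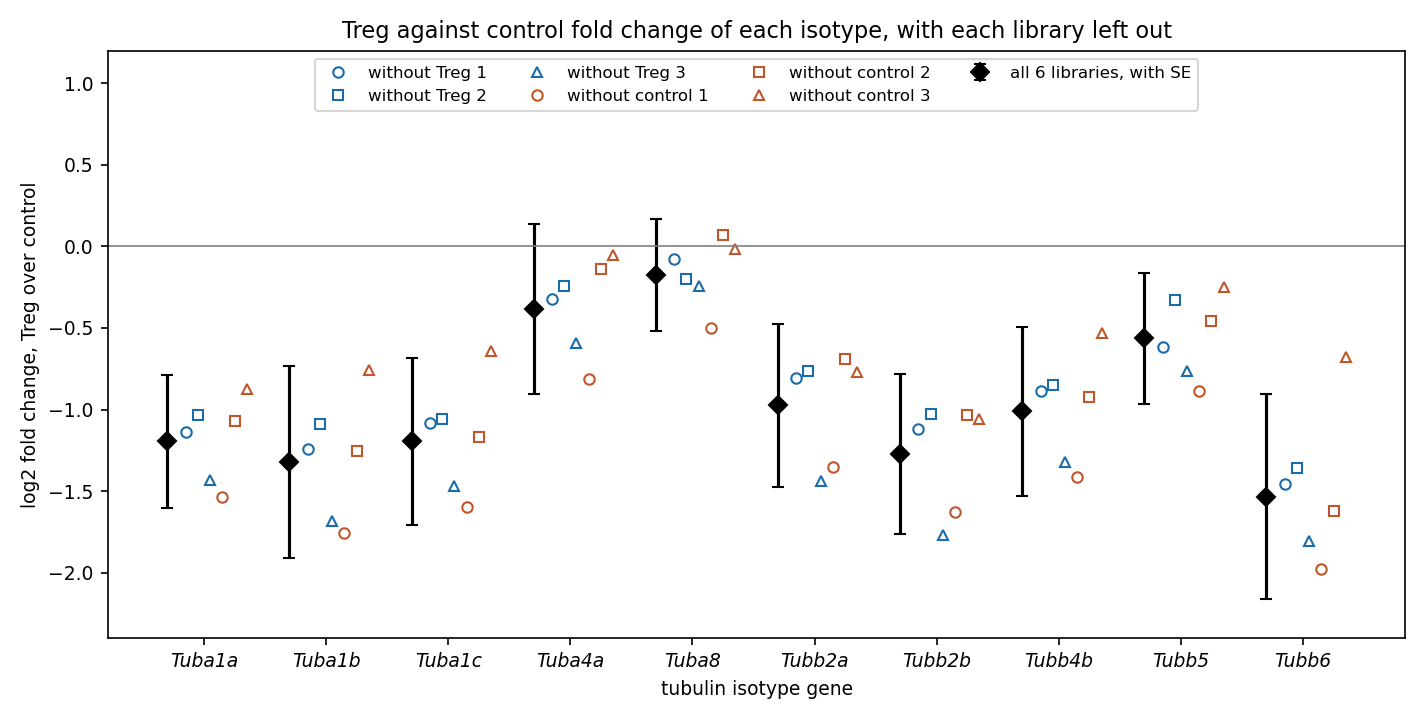
Log2 fold change, Treg over control, of each tubulin isotype with all 6 libraries (diamonds, bars are 1 SE) and with each library left out in turn (open symbols). Values without control replicate 1 lie at −0.50 to −1.98, and those without control replicate 3 at −0.01 to −1.06.

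The isotypes moved together from library to library. Relative to each gene's mean log2 level over the 6 libraries, their median was −0.62, −0.83 and 0.12 in Treg replicates 1, 2 and 3, and −0.85, 0.80 and 1.16 in control replicates 1, 2 and 3. The medians of all genes tested lay between −0.01 and 0.01 in these libraries. Each of the 10 isotypes had control replicates 2 and 3 above every Treg library and control replicate 1 not above them, an arrangement found in 10.1% of genes tested. Control replicate 1 lay below every Treg library for 5 isotypes and inside the Treg range for the other 5. Within the Treg group, replicate 3 was the highest for all 10 isotypes (34.0% of genes) and replicate 2 the lowest for 9 (37.8% of genes), the exception being Tuba8. The highest level of all was in control replicate 3 for 7 isotypes and in control replicate 2 for Tuba8, Tubb2a and Tubb2b. This shared pattern was described after its values were seen, and genes with shared windows are not independent observations of it. Tuba4a, Tuba8, Tubb5 and Tubb6 share no window and show it too. They are among the 10 genes it was described from and were read in the same 6 libraries, so they are not independent observations either.

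**Figure D3:**
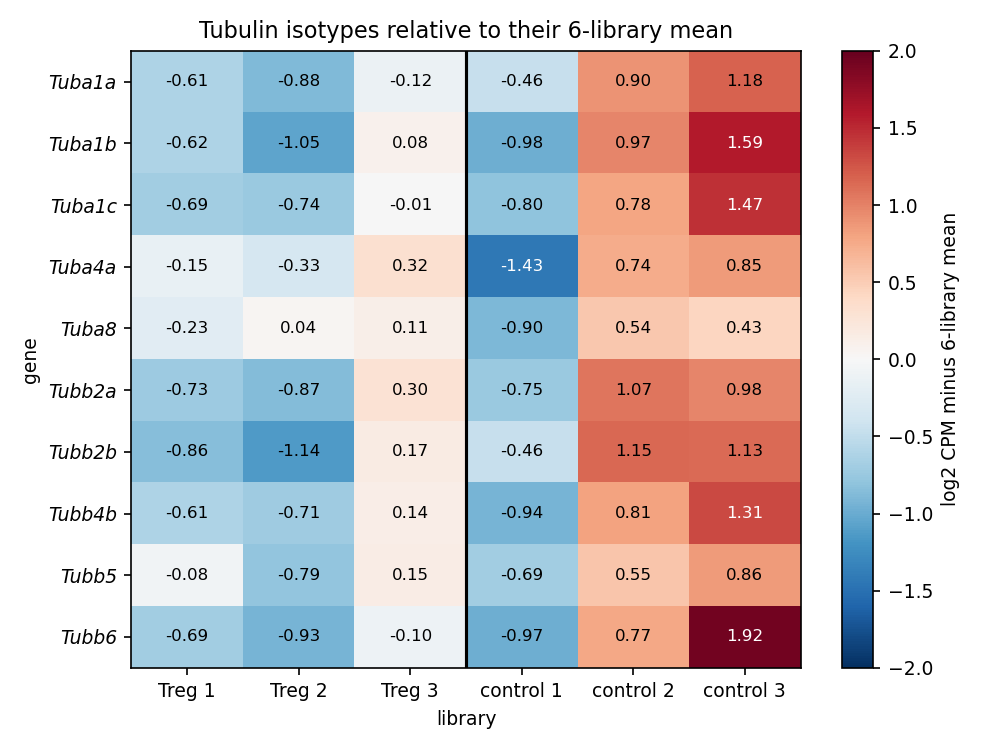
Log2 CPM of each tubulin isotype minus its mean over the 6 libraries, by library, Treg libraries left of the line. Control replicates 2 and 3 are above the mean for all 10 genes and control replicate 1 is below it for all 10.

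The Treg libraries lay closer together than the controls. Across the isotypes the highest Treg library was 1.27 to 2.48 times the lowest, and the highest control 2.72 to 7.46 times the lowest. Over all genes the same held, with chi-square per degree of freedom 19.5 to 40.5 among Treg libraries and 41.2 to 129 among control libraries. The 10 isotypes together summed to 833, 709.9 and 1228 CPM in the Treg libraries, against 598, 1969 and 2572 CPM in the control libraries. Sums over near-copy genes depend less on how reads were divided among copies, although pseudogenes stay outside them, and gave a similar picture. Tuba1a, Tuba1b and Tuba1c together stood at 280.3, 229.9 and 434 CPM in Treg, against 259, 816 and 1177 CPM in control, a log2 ratio of means of −1.25. Tubb2a and Tubb2b together stood at 40.0, 35.5 and 81.7 CPM in Treg, against 43.4, 146 and 139 CPM in control, a log2 ratio of −1.06. Of the pseudogenes that share windows with an isotype, 9 had a row in the table. They summed to 48.6, 38.2 and 76.9 CPM in Treg, against 40.5, 138 and 202 CPM in control. These rows, which could hold misassigned tubulin reads, followed the order of libraries of the Tuba1 sum. The lowest library was Treg replicate 2 in both, and control replicate 1 in the sum of the 10 isotypes.

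Levels of different isotypes were compared per kilobase of annotated exon. In Treg hearts the order of means was Tuba1b (75.5 ± 30.5 CPM per kb), Tuba4a (67.9 ± 16.6), Tuba1a (56.4 ± 15.7), Tubb4b (55.2 ± 18.9), Tuba1c (31.3 ± 9.40), Tubb5 (30.5 ± 9.499), Tuba8 (28.3 ± 3.41), Tubb2a (23.6 ± 11.3), Tubb6 (10.03 ± 3.07) and Tubb2b (6.25 ± 3.18 CPM per kb). No 2 neighbours in this order differed by more than the sum of their SDs over libraries. Since isotypes of 1 library share its high or low level, neighbours were also set against each other within libraries. Tubb4b lay above Tuba1c, Tubb2a above Tubb6 and Tubb6 above Tubb2b in 6 of 6 libraries each, while the other neighbours changed places in at least 1 of the 6. In control hearts the means per kilobase ran from Tuba1b at 189 ± 130 and Tuba1a at 129 ± 63.7 to Tubb2b at 15.1 ± 7.54 CPM per kb, and again no neighbours differed beyond the sum of their SDs. With the length of 1 full coding transcript per gene in place of all exons, Tuba4a came before Tuba1b in Treg (88.5 and 81.2 CPM per kb), so the order at the top depends on the length used.

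The make-up of the alpha pool, computed after the levels were seen, separated the groups for 4 of its 5 isotypes. By level, 25.4% of all genes tested separated the groups in either direction, and no such figure was computed for shares. The single shares of Tuba1a, Tuba1b and Tuba1c also rest on the uncertain split of counts among these genes. Tuba4a made up 26.8%, 27.1% and 25.3% of the summed alpha level per kilobase in Treg replicates 1 to 3, against 14.6%, 19.8% and 16.2% in control replicates 1 to 3. Tuba8 made up 10.5%, 14.5% and 9.02% in Treg, against 8.72%, 7.16% and 5.01% in control. Tuba4a and Tuba8, which have no final tyrosine codon, thus had larger shares in each Treg library than in any control library. Tuba1a made up 22.4%, 21.3% and 21.5% in Treg, against 32.9%, 25.6% and 23.4% in control, with every Treg library below every control. Tuba1c was also lower in every Treg library, by a narrow margin (highest Treg 12.5%, lowest control 12.6%), and Tuba1b overlapped (28.5% ± 3.66 in Treg and 35.0% ± 5.20 in control). Shares of 1 pool are tied to each other, and with 3 libraries against 3 an exact two-sided permutation test cannot go below p = 0.1, so no call is made. Shares of transcripts are not shares of protein.

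**Figure D4:**
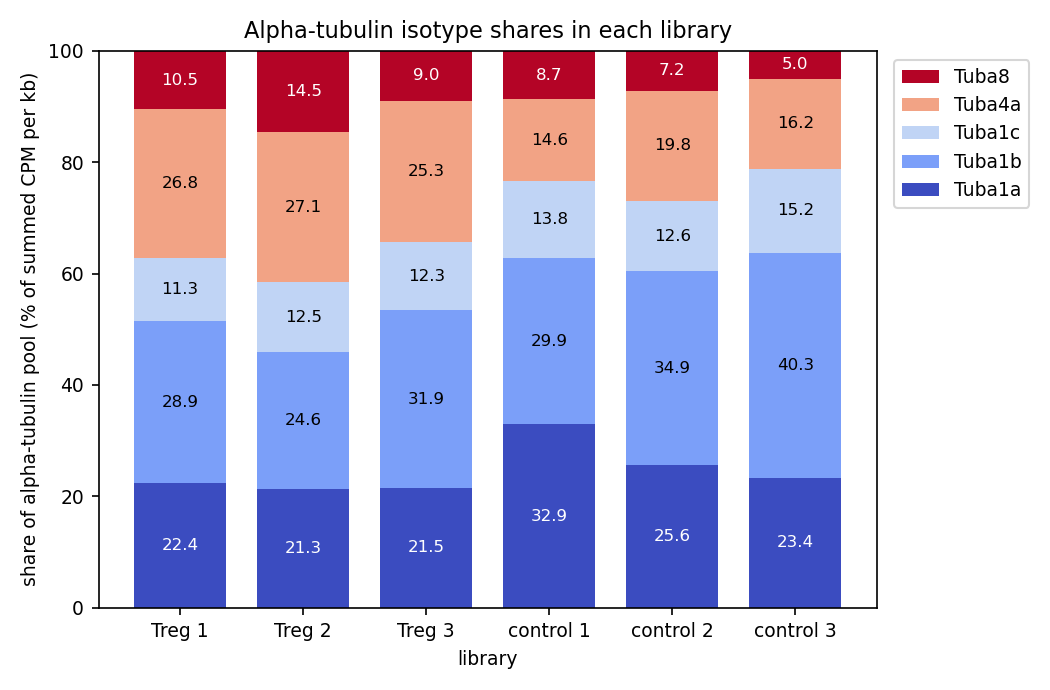
Share of each alpha isotype in the summed alpha level (percent of CPM per kilobase) in each library, Treg libraries on the left. Tuba4a takes 25.3% to 27.1% in the Treg libraries and 14.6% to 19.8% in the control libraries.

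In the beta pool, no isotype had such a separation. Tubb4b held the largest share in both groups, at 44.2% ± 2.87 in Treg and 43.9% ± 3.13 in control. Tubb5 held 24.6% ± 4.48 in Treg and 19.7% ± 3.75 in control, and Tubb6 held 8.07% ± 0.361 in Treg and 10.6% ± 3.67 in control, where replicate 3 was at 14.9%. Beta isotypes summed to 125.5 ± 44.4 CPM per kb in Treg and 247 ± 143 in control, and alpha isotypes to 259 ± 73.6 in Treg and 510.1 ± 305 in control. The log2 ratios of means were −0.97 for beta and −0.98 for alpha, so the pools had nearly the same ratio.

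The other tubulin genes were centred near 0. Of 10 listed, 7 were tested and 0 passed by edgeR; their median log2 fold change was −0.08. Tubb3, the neuronal beta isotype, was the only one with an unadjusted p under 0.05 and stood at 1.29, 1.73 and 3.52 CPM in Treg, against 3.79, 19.5 and 5.25 CPM in control (−2.12 ± 0.68, edgeR adjusted p = 0.232). Every Treg library lay below every control, with control replicate 2 far above the rest. The gamma tubulins Tubg1 and Tubg2, which nucleate microtubules, had −0.17 ± 0.23 and −0.08 ± 0.20, and Tubb4a, at a mean of 1.30 CPM, had 0.22 ± 0.46. Tubd1, delta tubulin of the centriole, stood at 7.22, 6.49 and 5.40 CPM in Treg, against 4.67, 5.43 and 1.28 CPM in control (0.75 ± 0.46, edgeR adjusted p = 0.438).

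Genes that fold tubulin or govern its mRNA mostly had log2 fold changes a little below 0. All 22 listed genes were tested, 20 had a log2 fold change below 0, and the median was −0.21. By edgeR 0 passed, and 6 were lower at an unadjusted p under 0.05. Over all genes tested, 52.1% had a log2 fold change below 0 and 8.31% were lower at that p. Pfdn1, a prefoldin subunit that passes new chains to the chaperonin, stood at 48.6, 55.0 and 45.1 CPM in Treg, against 63.1, 80.6 and 70.5 CPM in control (−0.53 ± 0.14, edgeR adjusted p = 0.187). Cct8, a subunit of the CCT chaperonin that folds tubulin and actin, stood at 108, 117 and 122 CPM in Treg, against 139, 162 and 181 CPM in control (−0.47 ± 0.14, edgeR adjusted p = 0.217). The folding cofactors Tbcd and Tbcb had −0.53 ± 0.16 and −0.44 ± 0.14. These 4 were named for the smallest p in the list, so their separate groups are a description. In the whole list, 7 of 22 genes had every Treg library below every control, beside 11.7% of all genes. Ttc5, the factor of tubulin mRNA decay, and Scaper, which acts with it, were picked for their role after values were seen. Ttc5 stood at 12.4, 10.8 and 10.99 CPM in Treg, against 12.6, 12.1 and 9.53 CPM in control (−0.00 ± 0.16, edgeR adjusted p = 0.993). Scaper had 0.29 ± 0.35.

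Among enzymes that act on the tubulin tails, 5 of 22 tested had groups that did not overlap (22.7%), close to the 25.4% of all genes. Of the 8 genes for tyrosination, detyrosination and acetylation, 0 passed by edgeR and the median was −0.12. Vash2, a detyrosinating vasohibin, stood at 0.82, 0.40 and 0.47 CPM in Treg, against 1.61, 1.75 and 2.66 CPM in control (−1.82 ± 0.36, edgeR adjusted p = 0.131), a low level at which a library held few counts. Its relative Vash1 and the ligase gene Ttl were picked for their role after values were seen. Vash1 stood at 17.6, 10.2 and 16.9 CPM in Treg, against 15.4, 14.8 and 12.3 CPM in control (0.07 ± 0.23). Svbp, the partner both need, had −0.18 ± 0.14, and Ttl, which encodes the ligase that restores the tyrosine, stood at 29.9 to 31.7 CPM in Treg and 30.7 to 31.7 CPM in control. The tubulin deacetylase gene Hdac6 had −0.30 ± 0.15 and the acetyltransferase gene Atat1 0.26 ± 0.23. Among 14 tested of 21 genes for glutamylation and glycylation, 0 passed by edgeR. Ttll11, a polyglutamylase, stood at 2.74, 2.74 and 3.17 CPM in Treg, against 5.82, 8.21 and 11.01 CPM in control (−1.53 ± 0.26, edgeR adjusted p = 0.1002). Ttll1, the catalytic subunit of another glutamylase, stood at 28.1, 39.9 and 24.2 CPM in Treg, against 13.4, 13.9 and 6.23 CPM in control (1.46 ± 0.33, edgeR adjusted p = 0.156). Both separated the groups completely, in opposite directions. Agtpbp1 and Agbl3, which encode carboxypeptidases that shorten glutamate chains, had 0.45 ± 0.23 and −0.32 ± 0.18.

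Genes for proteins that bind microtubules had a median log2 fold change of 0.01 over 33 tested of 35, with 0 past the threshold by edgeR. At an unadjusted p under 0.05, 4 were lower and 1 was higher, beside 8.31% lower and 8.24% higher over all genes. Map1b, a microtubule-associated protein of growing neurites, stood at 33.6, 32.9 and 44.4 CPM in Treg, against 58.4, 55.0 and 63.2 CPM in control (−0.67 ± 0.15, edgeR adjusted p = 0.156). Mapre1, the plus-end binding protein EB1, stood at 74.1, 82.0 and 83.5 CPM in Treg, against 105, 121 and 120.3 CPM in control (−0.53 ± 0.12, edgeR adjusted p = 0.159). The kinase gene Mark1 had −0.71 ± 0.18 and the plus-end gene Clasp2 0.39 ± 0.13. Map4, the main microtubule-associated protein of heart muscle, was picked after its values were seen and stood at 468 ± 18.6 CPM in Treg and 484 ± 104 in control.

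For microtubule nucleation, 0 of 13 genes had an unadjusted p under 0.05 and the median was 0.02; the smallest p were those of Ninl (−0.33 ± 0.21), Tubgcp5 (−0.21 ± 0.14), Tubgcp4 (0.18 ± 0.12) and Tubgcp6 (0.14 ± 0.14). Of 19 motor genes tested 0 passed by edgeR, with a median of −0.12. Kif5b, the kinesin heavy chain of most cells, stood at 207, 205 and 253 CPM in Treg, against 350.3, 343 and 241 CPM in control (−0.49 ± 0.19, edgeR adjusted p = 0.279), and the neuronal Kif5a had −0.90 ± 0.28. The light chain genes Dynlt3 and Dynll2 had −0.22 ± 0.12 and 0.28 ± 0.15. Of 6 genes for filament partners 0 passed by edgeR and 5 were below 0. Des, desmin, to which detyrosinated microtubules attach, stood at 2273, 3398 and 2873 CPM in Treg, against 6642, 4402 and 3109 CPM in control (−0.73 ± 0.30, edgeR adjusted p = 0.291), and Synm, its partner synemin, had −0.71 ± 0.29. Both were highest in control replicate 1, the control in which tubulin was lowest. The crosslinker gene Plec had −0.31 ± 0.14 and the fibroblast and endothelial filament gene Vim −0.61 ± 0.36.

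Some of these listed genes passed the threshold in other fits. By DESeq2, Tubb3, Vash2, Ttll11, Pfdn1, Map1b, Mapre1 and Mark1 were lower and Ttll1 was higher at an adjusted p under 0.05, with adjusted p values between 4.446e-05 for Ttll11 and 0.0491 for Pfdn1, where 3.76% of all genes passed. Without control replicate 3, edgeR's adjusted p was 0.0384 for Synm and 0.0364 for Ttll11, both lower in Treg. In that fit 226 of all 17632 genes tested passed. Without Treg replicate 3 and control replicate 3, edgeR's adjusted p was 0.0495 for Map1b, lower in Treg, and 0.0465 for Ttll1, higher in Treg. There 114 of all 17381 genes tested passed.

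**Figure D5:**
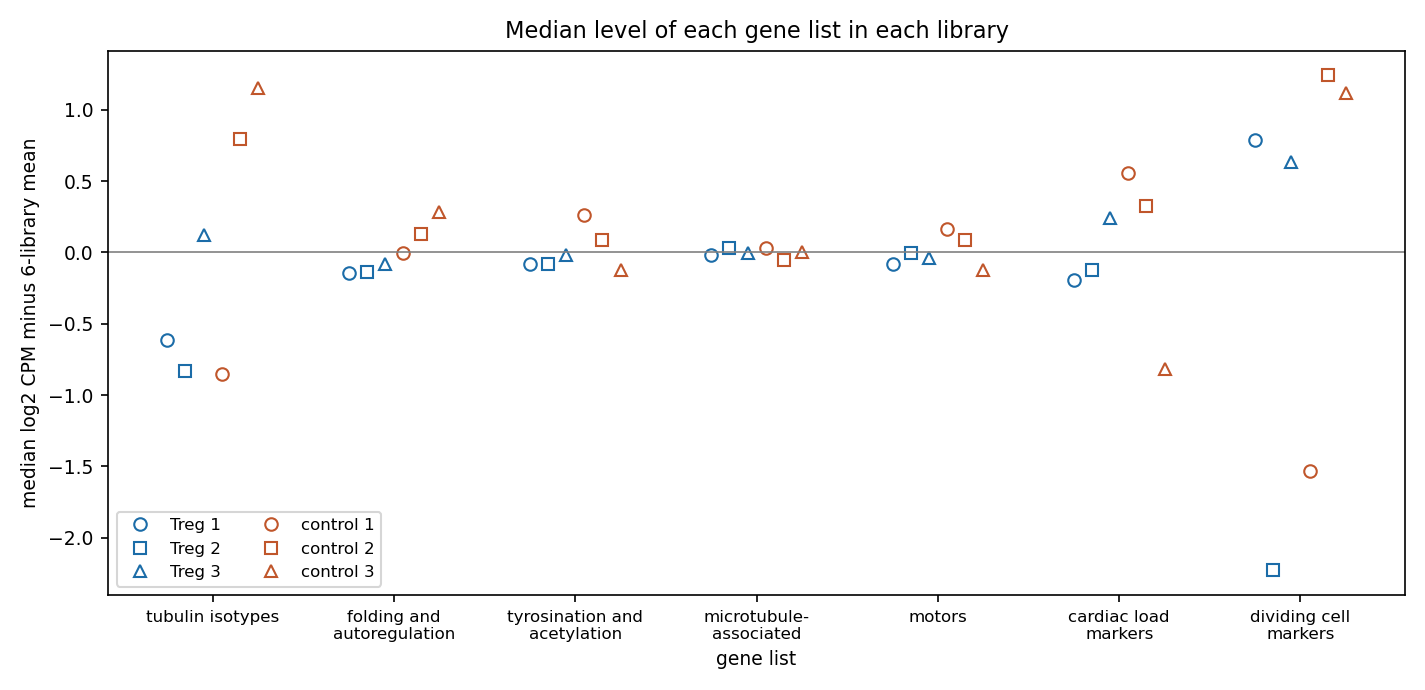
Median over the tested genes of each list of log2 CPM minus the 6-library mean, by library (Treg circles, squares and triangles left of those of control within each list). The tubulin isotypes range from −0.85 to 1.16, folding genes from −0.14 to 0.28, and dividing cell markers from −2.23 to 1.24.

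Other markers also differed between libraries. Dividing cell markers (8 of 8 tested, none at 0 counts throughout) summed to 76.5, 9.27 and 65.4 CPM in the Treg libraries, against 14.3, 91.6 and 79.6 CPM in the control libraries. Treg replicate 2 and control replicate 1, the libraries lowest in these markers, were also those with the lowest isotype medians. Treg replicate 1 did not follow this order. Its markers summed to 76.5 CPM, near the 79.6 CPM of control replicate 3, but its isotype median was −0.62, against 1.16 there. Markers of cardiac load (6 of 6 tested) ran differently, summing to 15360 to 18190 CPM in Treg and 9070 to 22290 CPM in control, with their median highest in control replicate 1 (0.56) and lowest in control replicate 3 (−0.82), the reverse of the tubulin order in those libraries. Genes of this list differed in direction, and none passed by edgeR. Nppb, the natriuretic peptide of wall stress, had a log2 fold change of −0.91 ± 0.22, with every Treg library below every control (edgeR adjusted p = 0.1697). Myh7, the slow myosin heavy chain raised under load, had 0.92 ± 0.32, with every Treg library above every control (edgeR adjusted p = 0.251). The other 4 overlapped, with log2 fold changes between −0.38 and 0.11. Macrophage markers (7 of 7 tested) summed to 355 to 537 CPM in Treg and 367 to 938 CPM in control, highest in control replicate 2. Neutrophil markers (6 of 6 tested) summed to 8.36 to 18.9 CPM in Treg and 7.05 to 40.1 CPM in control, highest in control replicate 3. Activated fibroblast markers (6 of 6 tested) summed to 1115 to 2079 CPM in Treg and 1734 to 3149 CPM in control. The part of these markers in the tubulin values was not tested.

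The genes whose library pattern lay nearest to an isotype were found by the root mean square difference of centred log2 CPM over the 6 libraries, among 8387 other genes at a mean of at least 10 CPM. For Tuba1a, which had the smallest p, these were Anxa1 (0.15), Vcan (0.18), Anxa2 (0.19), Tuba1c (0.20) and Glipr2 (0.21). Anxa1 and Anxa2 encode annexins, which bind membrane phospholipid in the presence of calcium, and Vcan encodes the matrix proteoglycan versican. Anxa1 stood at 45.2, 41.9 and 56.2 CPM in Treg, against 47.9, 104 and 158 CPM in control. The other isotypes ranked between 6 and 58 by nearness to Tuba1a, except Tuba4a (503) and Tuba8 (686). For Tuba4a, the isotype with the highest mean CPM, the nearest were Itgam (0.30), Cfp (0.31), Rian (0.33), Tuba8 (0.34) and Tgfbi (0.35). Itgam encodes an integrin chain of myeloid cells, Cfp the complement factor properdin, and Tgfbi a matrix protein. These are descriptions over 6 libraries, and no p is given.

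Because the isotypes moved together, their promoters were examined. RefSeq promoters on GRCm38.p6, from 250 bases before to 50 after the start, were matched for 8 isotypes, and Tubb2b and Tubb6 were not matched. The CCAAT box (CCAAT or ATTGG) occurred in 4 of the 8, against 37.4% of 32851 promoters. The GC box (GGGCGG or CCGCCC) occurred in 6 of 8, against 35.7%, and the TATA box (TATAAA or TTTATA) in 2 of 8, against 13.6%. G and C made up 53.7% to 72.7% of the bases of the 8 isotype promoters, against a median of 52.7% over all promoters. The part of base composition in the GC box count was not tested. Tubb4b and Tuba8 are shown as the promoter with the most matches and one with none. Both run 5′ to 3′ on the gene's strand, with matches in capitals. They lie at chr2:25224653-25224952 (minus strand) and chr6:121210484-121210783 (plus strand).
Tubb4b: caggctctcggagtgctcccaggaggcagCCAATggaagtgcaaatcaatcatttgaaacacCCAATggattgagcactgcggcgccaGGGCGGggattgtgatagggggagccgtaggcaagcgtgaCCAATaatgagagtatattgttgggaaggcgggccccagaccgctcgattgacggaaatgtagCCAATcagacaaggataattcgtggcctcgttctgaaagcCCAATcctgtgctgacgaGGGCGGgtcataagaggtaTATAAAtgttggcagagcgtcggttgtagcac
Tuba8: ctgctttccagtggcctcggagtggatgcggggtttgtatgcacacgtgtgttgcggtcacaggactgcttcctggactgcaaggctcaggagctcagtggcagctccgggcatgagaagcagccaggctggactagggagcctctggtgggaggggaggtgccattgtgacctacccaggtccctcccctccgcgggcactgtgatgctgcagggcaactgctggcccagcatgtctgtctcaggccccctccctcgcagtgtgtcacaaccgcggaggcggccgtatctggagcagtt

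Tubb4b held 5 CCAAT, 2 GC and 1 TATA matches. Matches are runs of letters and not shown to be bound, and the absence of a match in Tuba8 says only that these letters are not in its window.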

How the data were processed

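The authors deposited one table of estimated counts per Ensembl gene, not normalized. By library, 46.5% to 50.0% of nonzero entries are not whole numbers, for a reason the sources used here do not give. The submitters' processing notes name GRCm38, featureCounts 2.0.6, HISAT2 2.1.0, Trimmomatic 0.39 and Cuffdiff 2.2.1, without their roles. Per the labels' protocols, libraries were stranded mRNA, read as paired 101 bp ends. A further 6 columns match no sample listed here and were not used.

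Estimated counts were rounded, although the test had been planned for whole counts. Treg and control were compared with edgeR 4.0.16 (R 4.3.3): filterByExpr, TMM scaling, robust quasi-likelihood F tests, two-sided, without covariates, Benjamini-Hochberg adjustment over all 17343 genes at 0.05. An SE is the size of a log2 fold change over the root of its F value. The tests were tested on simulated data. Alternatives used DESeq2 1.42.0 and limma 3.58.1. Symbols matched 47224 gene IDs (GENCODE M21).

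The isotypes, gene lists and tests were chosen with earlier results of these data known. All 10 isotypes are named, with other tubulins at a mean of at least 1 CPM and, in each list of microtubule genes, up to 4 genes with the smallest p. Ttc5, Scaper, Vash1, Ttl, Map4, Nppb, Myh7, Myl7 and the T cell markers were named outside this rule, after their values were seen. Marker lists made up 12 of the 21 lists. Fibroblast markers summed to 1894 to 3216 CPM in Treg and 2413 to 3466 CPM in control. Endothelial markers likewise summed to 540.0 to 639 and 484 to 706 CPM, and smooth muscle markers to 571 to 716 and 486 to 709 CPM. Schwann cell markers summed to 13.7 to 14.5 in Treg and 17.9 to 38.7 CPM in control, with 2 tested genes lower and 3 higher. T cell markers summed to 2.63 to 2.73 CPM in Treg and 2.78 to 17.5 CPM in control. These sums differed mainly through Cd3e, at 0.40, 0.58 and 0.47 CPM in Treg and 2.88, 1.19 and 15.7 CPM in control. Foxp3, the other T cell marker tested, had 0.04 ± 0.22. Trac held 6, 6 and 13 counts in Treg and 5, 4 and 0 in control. Cd3g held 11, 9 and 3 against 3, 0 and 0, and Cd3d at most 3.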

Additional observations from a re-analysis of the deposited data

How the results depend on the processing

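Over 19 other settings, the fold changes of the 10 isotypes gave further tested values, of which 148 kept their direction and their side of the threshold, 1 passed it (Tuba1a by DESeq2, adjusted p = 0.0491) and 1 changed sign (Tuba8 without control replicate 2). The sums of near copies in place of single genes, with no test, gave 5 values in the same direction. Leaving out 1 library gave Tuba8 −0.50 to 0.0723 (the highest without control replicate 2), Tuba4a −0.81 to −0.05, Tubb6 −1.98 to −0.68 and Tuba1b −1.76 to −0.76. Isotypes past the threshold numbered 0, 1 by DESeq2, and 4 at an unadjusted p under 0.05. For all genes the count was 0, with 652 by DESeq2, 32 without a filter, 56 at an adjusted p under 0.1 and 2871 at an unadjusted p under 0.05. Leaving out 1 library gave 0 to 226, and 226 was without control replicate 3. The cause was not tested. No label states whether replicate numbers pair the libraries. Same-numbered libraries' deviations from their group means correlated at −0.145, −0.234 and 0.042, and those of differently numbered libraries at −0.233 to 0.305. Deviations within a group of 3 are tied to each other, so these values cannot decide whether libraries were paired. With the replicate number as a block, 0 isotypes and 0 genes passed by edgeR, and 2473 genes had an unadjusted p under 0.05. Leaving out 1 library gave 0 isotypes past the threshold in each case (0 to 0).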
